A study of Mus musculus with 2 samples.

Results

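Polyamines and the hypusine modification of the translation factor eIF5A were followed through 10 genes: Odc1, Srm, Sms, Amd1, Azin1, Oaz1, Sat1, Eif5a, Dhps and Dohh. They were taken by name from both expression tables; no threshold on a value entered the choice, which was made with earlier results of these data known. All 10 were among the 14366 genes of the tables, and all 10 were among the 8886 genes with a mean of at least 5 CPM (molecules of a gene per 1000000 molecules) over the 2 libraries. The cells were hematopoietic stem cells (HSC) of wildtype C57/B6 mice aged 6 to 8 weeks, sorted from marrow pooled from 8 mice as negative for lineage markers and CD48 and positive for c-Kit, Sca-1 and CD150. They were kept in liquid culture for 48 h with stem cell factor at 100 ng/ml and thrombopoietin at 50 ng/ml, and received either deferoxamine (DFO, an iron chelator) at 10 µM or sterile water as vehicle. Each condition gave 1 single-cell library by a 10x Genomics 3′ kit, from 20000 loaded cells. There were thus no replicates, no test between conditions was possible, and every interval below is a 95% interval for counting error only.

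Polyamines are small positively charged molecules that bind nucleic acids and are needed for growth. Ornithine decarboxylase makes putrescine, spermidine synthase and spermine synthase lengthen it with aminopropyl groups from decarboxylated S-adenosylmethionine (SAM), and antizyme targets ornithine decarboxylase for degradation while antizyme inhibitor counters antizyme. Spermidine is also the donor for hypusine, an amino acid found in eIF5A, which helps ribosomes through difficult peptide bonds. Deoxyhypusine synthase (Dhps) carries out the first step, and deoxyhypusine hydroxylase (Dohh), an enzyme with an iron center, the last. The tables hold transcripts, so neither enzyme activity nor the amount of hypusine was measured.

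The tables held 8708 vehicle cells and 9852 DFO cells, with 260938938 and 284326017 molecules and medians of 27805.5 and 27114 molecules (UMIs) per cell. The 2 tables shared 24 cell barcodes. All 15 listed HSC markers were present, at a summed 340 CPM under vehicle and 374 CPM in DFO, with 6 of them lower in DFO. The megakaryocyte list, of which Gp6 was not in the tables, summed to 1792 and 794 CPM, and all 14 of its listed members present were lower in DFO. That list therefore differed between the 2 libraries, and its part in the differences below was not tested. The erythroid sum went from 904 to 870 CPM and the neutrophil-monocyte sum from 262 to 240 CPM. The lymphoid sum was 8.67 and 8.78 CPM and the macrophage or dendritic sum 9.37 and 9.99. The mast cell or basophil sum was 45.7 and 47.6, and the stromal or endothelial sum 48.2 and 45.1. Of the genes present, 8 of 10 erythroid and 6 of 8 neutrophil-monocyte genes were lower in DFO. So were 1 of 2 lymphoid and 2 of 3 macrophage or dendritic genes. For mast cells or basophils it was 5 of 6, and for stromal or endothelial cells 2 of 5. The absent defining markers included Cd3e, Rag1, C1qa, Adgre1, Cxcl12 and Cdh5. Both sexes were present in both libraries, with cells called female at 54.6% and 53.3%.

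Sequences around the starts of the genes are shown for the members with an exact CACGTG, the E-box letters that MYC-family factors are known to bind, and for Odc1, a textbook MYC target whose window had none. RefSeq start windows (GRCm38.p6, from 250 bases before to 50 after each start) matched 8 of the 10 members; Srm and Azin1 had no entry. The letters are palindromic, so a match counts for both strands. They occurred in 7.15% of 32851 windows and in 8.09% of 27025 genes, and among the members in Sms, Eif5a and Dohh. Each stretch runs 5′ to 3′ on the gene's strand with the motif in capitals; in Eif5a the 2 sites belong to different annotated starts, and in Dohh the motif begins 2 bases past the first transcribed base.
Sms (chrX:157492466-157492495, minus strand): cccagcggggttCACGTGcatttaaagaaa
Eif5a (chr11:69921443-69921472, minus strand): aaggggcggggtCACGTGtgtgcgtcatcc
Eif5a (chr11:69920791-69920820, minus strand): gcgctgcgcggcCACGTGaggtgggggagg
Dohh (chr10:81384424-81384453, plus strand): gcccagcatggtCACGTGgccatcaagatg
The Odc1 window held 4 GC boxes (GGGCGG on either strand), the letters bound by SP1-type factors, which occurred in 35.7% of all windows, in 38.2% of genes and in 6 of the 8 matched members. One of them is shown with the box in capitals.
Odc1 (chr12:17544745-17544774, plus strand): cgcggggcgtatGGGCGGgtgggtgggcac
A match describes letters only. Sms and Dohh, which have the E-box letters, were higher in DFO, and Eif5a, which has them at 2 places, was lower, as the next values show.

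Transcripts for the making of polyamines were slightly more abundant in the DFO library, and Odc1 had the largest difference of the 10 genes. Odc1 (chr12:17544794-17551505, plus strand, GRCm38), which encodes ornithine decarboxylase, was at 282 CPM (280 to 284) in vehicle and 327 CPM (325 to 329) in DFO. That is 15.7% more, or 0.21 on the log2(CPM + 1) scale (0.20 to 0.22), a difference at percentile 97.4 of all 8886 genes. The same scale is used for every difference here, always as DFO over vehicle, and the median over all genes was 0.019. Srm (chr4:148591503-148594993, plus strand), spermidine synthase, was at 241 CPM (239 to 243) and 261 CPM (259 to 263), a difference of 0.11 (0.099 to 0.13). Sms (chrX:157443855-157492287, minus strand), spermine synthase, was at 146 CPM (145 to 148) and 159 CPM (157 to 160), a difference of 0.12 (0.098 to 0.14). The vehicle and DFO intervals of these genes did not overlap, but the share of all genes for which this holds is not given. Srm and Sms lay at percentiles 84.9 and 85.6 of all genes, less far out than Odc1. Amd1 (chr10:40287458-40302186, minus strand) encodes S-adenosylmethionine decarboxylase, the source of the aminopropyl donor, and stood at 46.8 CPM (46.0 to 47.7) and 50.1 CPM (49.3 to 50.9), a difference of 0.095 (0.060 to 0.13). Its near-identical copy Amd2, with which reads can be confused, was at 8.24 and 9.48 CPM, a difference of 0.18 in the same direction.

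Antizyme and its inhibitor differed in sign. Oaz1 (chr10:80826656-80829290, plus strand), antizyme, was at 1703 CPM (1698 to 1708) in vehicle and 1678 CPM (1673 to 1683) in DFO, a difference of -0.022 (-0.028 to -0.016) at percentile 33.9. Azin1 (chr15:38487427-38519266, minus strand), antizyme inhibitor, was at 41.0 CPM (40.2 to 41.8) and 46.0 CPM (45.3 to 46.8). Its difference of 0.16 (0.13 to 0.20), at percentile 93.6, was the largest among the members after that of Odc1. Because a 3′ kit counts one end per molecule, molecules of different genes can be set against each other without a length term. There were 6.04 Oaz1 molecules per Odc1 molecule in vehicle (5.99 to 6.08) and 5.14 in DFO (5.10 to 5.17). Made of the values above, this ratio adds no evidence, but it shows that antizyme transcripts exceeded those of its target enzyme in both libraries.

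Sat1 was the member with the largest difference in the other direction. Sat1 (chrX:155213132-155216449, minus strand) encodes spermidine/spermine N1-acetyltransferase, which marks polyamines for oxidation and export. It stood at 40.1 CPM (39.4 to 40.9) in vehicle and 36.2 CPM (35.5 to 36.9) in DFO. The difference was -0.15 (-0.18 to -0.11), at percentile 7.64 of all genes. Odc1 molecules per Sat1 molecule were 7.03 (6.89 to 7.18) in vehicle and 9.03 (8.85 to 9.22) in DFO.

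Of the hypusine genes, the substrate was lower in DFO and both enzymes were slightly higher. Eif5a (chr11:69916714-69921958, minus strand) was at 1657 CPM (1652 to 1662) in vehicle and 1554 CPM (1549 to 1558) in DFO, a difference of -0.093 (-0.099 to -0.086) at percentile 15.1. Dhps (chr8:85071757-85075162, plus strand) was at 49.7 CPM (48.8 to 50.5) and 52.8 CPM (51.9 to 53.6), a difference of 0.085 (0.052 to 0.12). Dohh (chr10:81384428-81388352, plus strand) was at 88.3 CPM (87.2 to 89.5) and 92.6 CPM (91.5 to 93.7). The difference of the iron enzyme was thus 0.068 (0.042 to 0.093), at percentile 69.8 of all genes. Eif5a molecules per Dohh molecule were 18.8 in vehicle and 16.8 in DFO, and Dhps molecules per Dohh molecule were 0.563 (0.551 to 0.575) and 0.570 (0.558 to 0.581), whose intervals overlap. Dhps overlaps Wdr83 on the opposite strand, which was at 33.8 and 31.0 CPM, and Dohh overlaps Gm48551 on its own strand, at 1.18 and 1.11 CPM. Azin1 overlaps the antisense gene Gm49077, at 0.157 and 0.137 CPM, and no source used here says how the authors' counting treated reads of such overlaps.

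**Figure D1:**
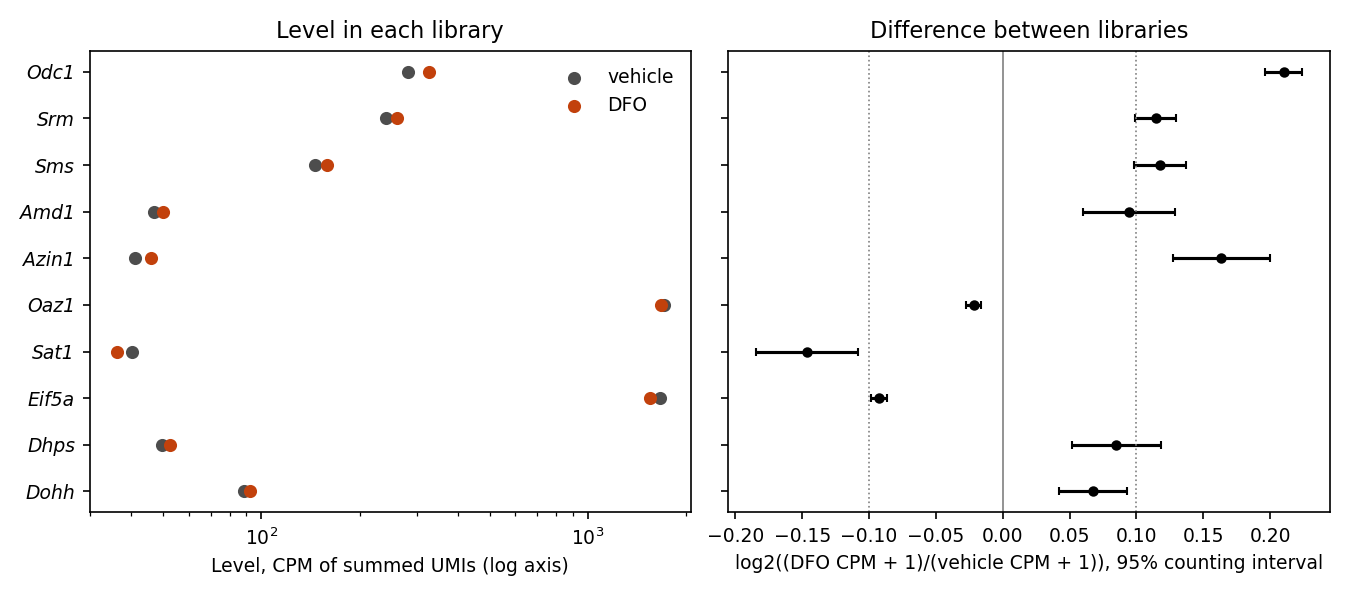
Left, the level of each gene in CPM of summed molecules (log axis) in the vehicle and DFO libraries. Right, the difference as log2 of (DFO CPM + 1) over (vehicle CPM + 1) with its 95% counting interval; the dotted lines mark 0.1 in either direction, and Odc1 lies farthest up at 0.21 and Sat1 farthest down at -0.15.

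Against the whole table these are modest sizes. At a difference of 0.1 or more, 4 of the 10 genes were higher in DFO (Odc1, Srm, Sms and Azin1), as were 19.2% of all 8886 genes. Sat1 alone was lower by that much, as were 14% of all genes. At 0.25 or more no member was higher or lower, against 1.4% and 2.58% of all genes. Of the 10 genes 7 had a positive difference, as did 5144 of the 8886 genes, and the median of the 10 was 0.090. A scaling by the median of ratios placed the median of all genes 0.019 lower, and under it 2 members were higher by 0.1 (Odc1 and Azin1) and 2 lower (Sat1 and Eif5a). With 1 library per condition, a change of treatment and a change between cultures or libraries cannot be told apart, and in sums over all cells neither can fewer cells of a type and less RNA per cell.

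**Figure D2:**
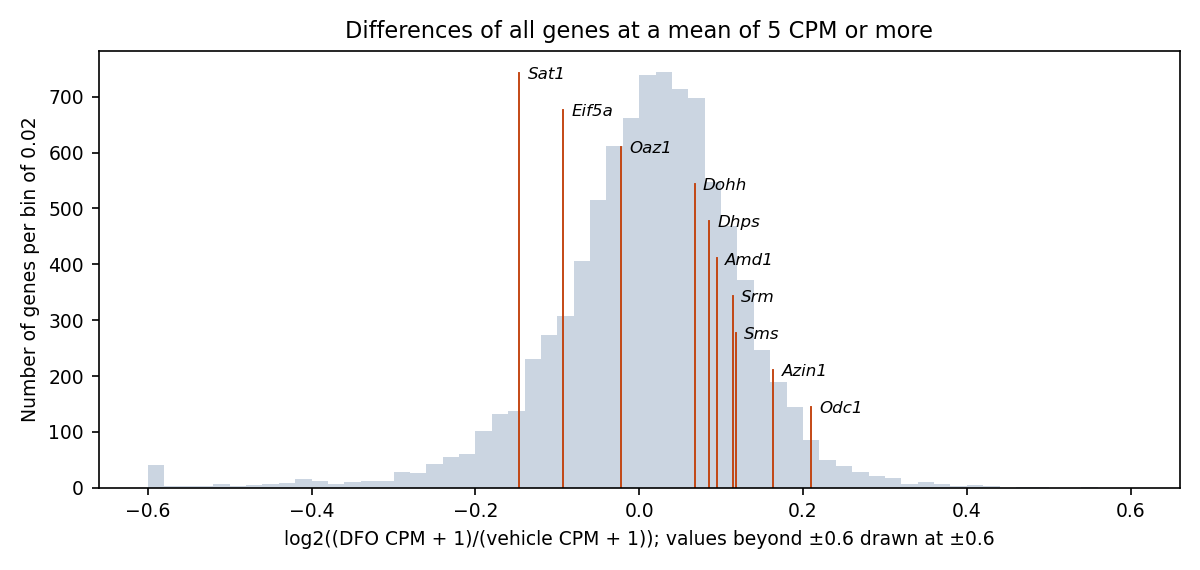
The number of genes (vertical axis) per bin of 0.02 of the difference between DFO and vehicle (horizontal axis, log2), over the 8886 genes with a mean of at least 5 CPM. Vertical lines mark the 10 genes, with heights staggered only for legibility; Odc1 lies at percentile 97.4 and Sat1 at percentile 7.64.

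The other genes of polyamine metabolism and transport did not move one way. Of 14 listed, 12 were in the tables and 7 reached 5 CPM; 3 of these were higher by 0.1 or more and 2 lower, beside 19.2% and 14% of all 8886 genes. Their median was 0.084, against 0.019 for all genes. The highest were Amd2 at 0.18 and Paox, polyamine oxidase, which was at 18.7 CPM under vehicle and 20.8 CPM in DFO, a difference of 0.15. The lowest were Smox, spermine oxidase, at 10.6 and 9.80 CPM (-0.10), and Atp13a2, a lysosomal polyamine exporter, at 41.4 and 34.5 CPM (-0.25). Paox and Smox both oxidize polyamines and differed in sign. Azin2, Oaz3, Sat2, Arg2 and Slc18b1 lay below the minimum.

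Genes of SAM supply and methionine salvage, which recovers the methylthioadenosine left by spermidine and spermine synthesis, also differed in both directions. All 11 reached the minimum, 5 were higher by 0.1 or more, none was lower by that much, beside 19.2% and 14% of all 8886 genes. The median was 0.089, against 0.019 for all genes, and 7 of the 11 values were positive. Adi1, an acireductone dioxygenase that binds iron, was at 27.2 CPM (26.5 to 27.8) in vehicle and 33.5 CPM (32.8 to 34.2) in DFO. Its difference of 0.29 (0.25 to 0.34) lay at percentile 99.4 and exceeded that of every one of the 10 genes above. Enoph1, which acts just before Adi1 in the salvage pathway, was at 22.4 and 26.5 CPM, a difference of 0.23. Apip and Mri1, of the same pathway, had the lowest values, -0.062 and -0.0995. Mtap, also of that pathway, was at 72.7 and 84.3 CPM, a difference of 0.21. The salvage enzymes thus did not share a direction.

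Of 4 other genes that handle eIF5A, 3 reached the minimum. Xpo4, its nuclear exporter, was at 28.6 and 30.1 CPM (0.074). Kat2b, its acetyltransferase, was at 6.62 and 6.31 CPM (-0.060), and Sirt2, a deacetylase, at 25.7 and 22.6 CPM (-0.18). The last was the only one past 0.1. Eif5a2, the second eIF5A gene, was below the minimum at 3.07 and 3.75 CPM, far under the level of Eif5a in both libraries. Myc, set beside Odc1 as the factor known to drive it, was at 91.9 and 107.5 CPM, a difference of 0.22. Tfrc, the transferrin receptor, whose mRNA is known to be stabilized when iron is low, was at 57.8 and 67.7 CPM, a difference of 0.23, close to that of Odc1. Pf4, a platelet chemokine of megakaryocytes, went from 1447 to 592 CPM (-1.29).

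To see where in the culture the genes are used, cells were clustered without the 10 genes, the pathway lists and the cell cycle genes. The first clustering separated cells by sex: 3 of its 7 clusters were 81.1% to 89.1% female and 3 were 75.8% to 86.9% male. Clusters were therefore also made without genes of the X and Y chromosomes, a choice made after seeing this. The 7 clusters of the second kind are numbered 0 to 6 and used below. Cluster 2 was megakaryocyte-like by its leading genes (Pf4, Cavin2, Treml1) and held 21.9% of vehicle and 16.3% of DFO cells. Its summed megakaryocyte markers were at 5053 CPM under vehicle and 2892 CPM in DFO, so the cells placed there differed between libraries. The rest were left without a cell type name. Cluster 0 was led by histone genes (21.9% and 29.9% of cells) and cluster 3 by the mitotic genes Ube2c, Nusap1 and Cenpf (10.4% and 11.9%). Cluster 1 (24.8% and 26.4%) met the rule for HSC on Sult1a1, and its summed HSC markers of 478 and 490 CPM were close to those of cluster 3, at 464 and 473 CPM. Clusters 4 (8.46% and 5.88%) and 5 (7.57% and 4.87%) shared Gzmb and Slc7a8 among their leading genes. Cluster 4 also had Cpa3, Siglecf, Aqp1 and Klf1 among them, and cluster 5 Gna14 and Il1rl1. Cluster 5 met the marker rule for mast cells or basophils. However, the sum of that list there, 61.5 and 68.6 CPM, was close to the 57.0 and 55.1 CPM of cluster 1. In cluster 4 that sum was 69.6 CPM in vehicle and 58.0 CPM in DFO. Cluster 6 (4.89% and 4.87%) was set apart by depth, with a median of 7001.5 molecules and 6.83% mitochondrial molecules.

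Odc1 was higher in DFO in each of these clusters. From cluster 0 to 6 its level in vehicle was 288, 242, 349, 253, 214, 191 and 460 CPM, and in DFO 328, 295, 405, 293, 297, 217 and 519 CPM. The vehicle and DFO counting intervals were apart in every cluster, but how many of all genes had this is not given. Among the clusters of ordinary depth the megakaryocyte-like cluster 2 had the highest level and cluster 5 the lowest in both libraries. The difference ran from 0.17 (0.085 to 0.26) in cluster 6 to 0.47 (0.40 to 0.54) in cluster 4, and was 0.28 (0.25 to 0.32) in cluster 1. In cluster 4 the summed megakaryocyte markers went from 1590 CPM in vehicle to 890 CPM in DFO, and their part in the Odc1 difference there was not tested.

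Srm had the same order of clusters in both libraries, from cluster 2 at 302 CPM under vehicle and 331 CPM in DFO down to cluster 5 at 146 and 165 CPM. Its difference was smallest in the histone-led cluster 0, at 0.033 (0.0060 to 0.060), and largest in cluster 4, at 0.23 (0.16 to 0.30). Sms varied least between clusters of the genes for synthesis: its highest level was 1.22 times its lowest in vehicle, against 2.41 times for Odc1. The Sms difference ran from 0.050 (-0.11 to 0.21) in cluster 6 to 0.20 in cluster 4. Amd1 ranged from -0.0077 in cluster 6 to 0.31 (0.16 to 0.47) in cluster 4, and Azin1 from -0.0063 in the mitotic cluster 3 to 0.41 (0.18 to 0.64) in cluster 6.

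Oaz1 was the most even in vehicle, where its highest level was 1.19 times its lowest, and its difference was positive in 5 clusters and negative in 2. Sat1 was ordered otherwise than the genes for synthesis. From cluster 0 to 6 its level in vehicle was 34.8, 43.9, 38.5, 38.0, 48.3, 51.8 and 35.0 CPM, and in DFO 35.0, 40.0, 34.2, 33.5, 38.4, 42.8 and 34.4 CPM. Cluster 5, lowest for Odc1 and Srm, was highest for Sat1 in both libraries. Its differences were -0.32 (-0.49 to -0.16) in cluster 4 and -0.27 (-0.41 to -0.13) in cluster 5, and in the histone-led cluster 0 it was 0.0094 (-0.066 to 0.085), so no difference was detectable there at this depth.

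Eif5a was highest in the megakaryocyte-like cluster 2, at 1883 CPM under vehicle and 1732 CPM in DFO, and that cluster also had its largest difference, -0.12 (-0.13 to -0.11). In cluster 4 it stood at 1593 CPM under vehicle and 1593 CPM in DFO. Dhps too was highest in cluster 2, at 56.8 and 59.3 CPM, and lowest in the shallow cluster 6, at 31.2 and 30.6 CPM. Dohh was instead highest in the histone-led cluster 0, at 97.5 CPM (95.1 to 99.9) in vehicle and 98.5 CPM (96.5 to 100.5) in DFO. The Dohh difference was positive in each cluster, but its interval stayed above 0 only in cluster 2, at 0.090 (0.037 to 0.14), and cluster 5, at 0.18 (0.074 to 0.28). The median over all genes was also positive in each cluster, at 0.018 in cluster 0, 0.030 in cluster 2 and 0.021 in cluster 5. Dohh lay below that median in cluster 0 alone, at 0.014. Dohh was at 81.1 CPM in cluster 5 in vehicle, against 91.7 CPM in DFO.

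**Figure D3:**
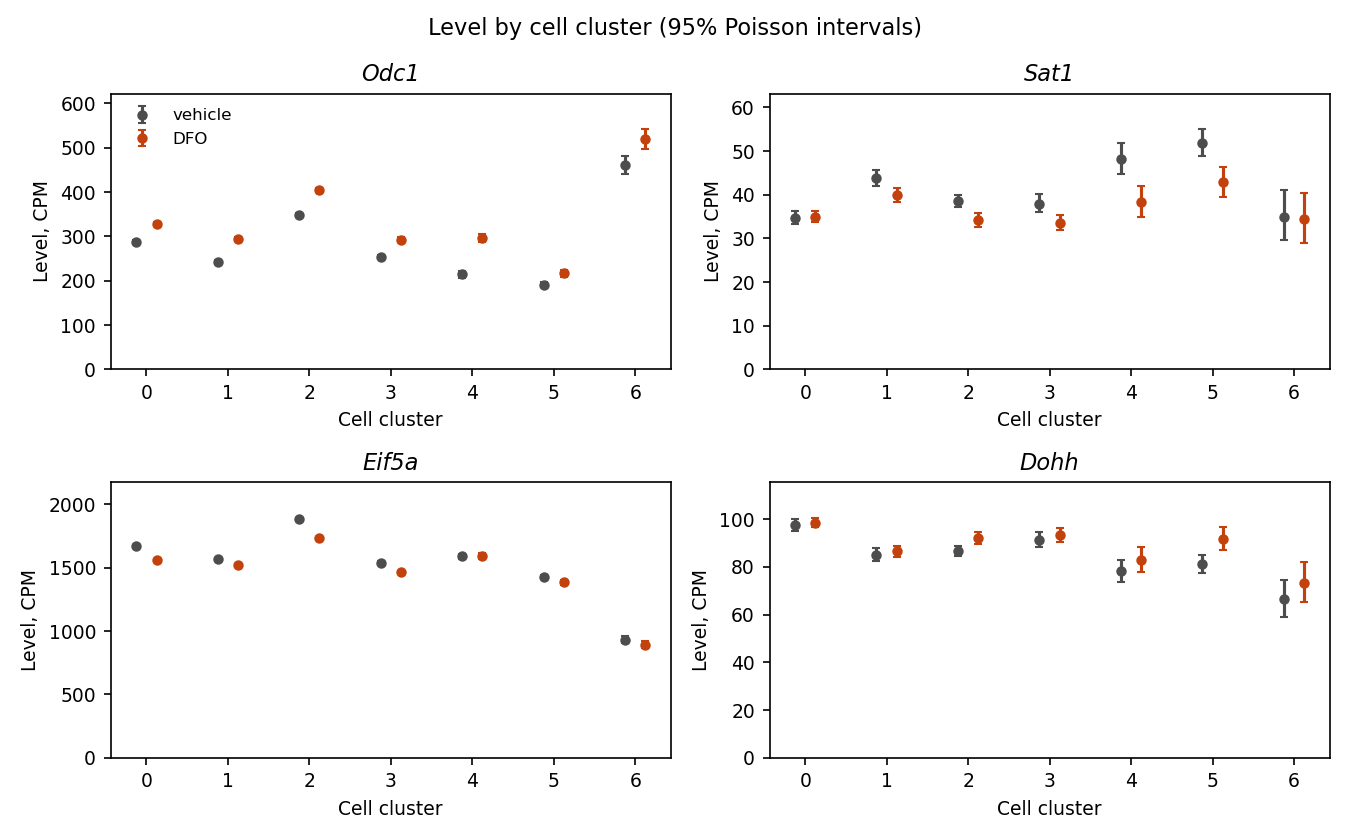
Level in CPM of Odc1, Sat1, Eif5a and Dohh (vertical axes, from 0) by cell cluster 0 to 6 in the vehicle and DFO libraries; bars are 95% Poisson intervals. Odc1 is higher in DFO in each cluster, Sat1 is highest in cluster 5, and Eif5a is lowest in the shallow cluster 6 at 933 and 894 CPM.

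A single direction across clusters was common among all genes. In the clusters made without X and Y genes, Odc1, Srm, Sms and Dohh were higher in DFO in all 7, as were 18.2% of the 8886 genes, and no member was lower in all 7, against 9.43% of genes. In the first clustering 6 members were higher in all 7 clusters (the same 4 with Azin1 and Dhps), against 19.6% of genes, and Sat1 and Eif5a were lower in all 7, against 10.8%. In cluster 4, 6 members were higher by 0.1 or more and 1 lower, beside 31.9% and 27.2% of all genes; the SD of the differences of all genes was 0.20 there and 0.098 in cluster 0. In cluster 0, with the most molecules over both libraries, 1 member was higher and none lower, beside 15.8% and 11.2% of genes.

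**Figure D4:**
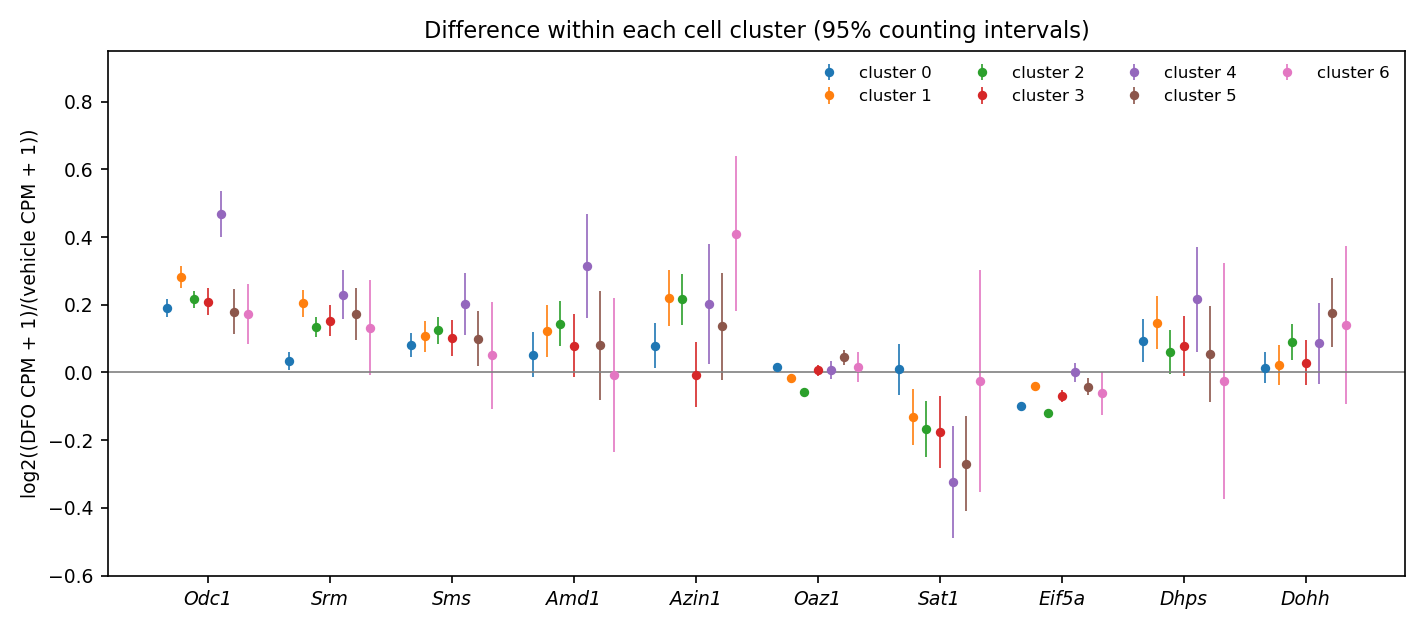
The difference between DFO and vehicle (vertical axis, log2) for each gene within cell clusters 0 to 6, with 95% counting intervals. The Odc1 points lie above 0 in each cluster, from 0.17 to 0.47, while the Sat1 points run from -0.32 to 0.0094.

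Over 12 points, the sums of clusters 0 to 5 in each library, Odc1 and Srm levels were correlated with a Pearson r of 0.93, Odc1 and Dhps with 0.96, and Odc1 and Sat1 with -0.83. With cluster 6 added (14 points) these values were 0.47, -0.32 and -0.79, so the relation of Odc1 to Srm and Dhps depended on leaving out the shallow cells. The points share libraries and depth, and the values are descriptions. Among 5489 genes with a mean of at least 20 CPM, those with the pattern most like Odc1 over the 14 sums of the first clustering were Pabpc4 (r = 0.990), Sdccag3 (0.986) and Ryk (0.984). For Sat1 they were Fuca1 (0.887), Atp6v0d1 (0.876) and Pdzk1ip1 (0.861), a looser likeness. For Eif5a they were Dctn3 (0.996), Ndufa11 (0.996) and Tbcb (0.995), and for Dohh Sco2 (0.986), Shmt1 (0.985) and Dusp12 (0.977). Without the shallow cluster the values for Eif5a were between 0.941 and 0.961, and those for Dohh between 0.898 and 0.952. These names depended on the clustering. Over the 14 sums of the clusters made without X and Y genes, the most alike were Pdap1, Rwdd1 and Ppp1r14b for Odc1 (0.990 to 0.982), Uqcr11, Ntmt1 and Edf1 for Eif5a (0.987 to 0.981) and Srrt, Dlat and Gemin6 for Dohh (0.969 to 0.961). None of these 9 was named for the same gene by the first clustering. For Sat1 the most alike were Fuca1 (0.917), again the first, with Ankrd37 (0.897) and Scand1 (0.895). Without the shallow cluster 6 the values for Eif5a in this clustering were between 0.877 and 0.937, and those for Dohh between 0.910 and 0.922.

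By called cell cycle phase, the genes for synthesis were lowest in G1 and Sat1 was highest there. Phase was called from S and G2/M gene lists that hold none of the 10 genes, in cells thinned to 10000 molecules. In vehicle 751 cells (8.99%) were called G1, 2408 (28.8%) S and 5198 (62.2%) G2/M, and in DFO 558 (5.92%), 2945 (31.3%) and 5916 (62.8%). Median depth differed between the calls, at 18124, 25911 and 32135.5 molecules in vehicle and 17297.5, 24949 and 31318 in DFO, and the part of depth or of free RNA in the calls was not tested. Odc1 was at 182 CPM (175 to 189) in G1, 291 CPM (287 to 295) in S and 286 CPM (284 to 289) in G2/M in vehicle, against 217, 337 and 327 CPM in DFO. G1 was thus apart from the other phases in both libraries. Cells called G1 made up 20.7% of cluster 1 and 18.7% of cluster 4, and at most 1.65% of each other cluster. Cluster 5, with 96.3% of cells in G2/M and 0% in G1, had the lowest Odc1 and the highest Sat1 of all clusters. The parts of phase and of cell state in these levels were not tested. Srm was at 142 CPM in G1 and 267 CPM in S in vehicle, against 158 and 275 CPM in DFO.

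The log2 difference of S over G1 was 0.90 in vehicle and 0.79 in DFO for Srm, at percentiles 97.0 and 96.7 of all genes, and 0.67 and 0.63 for Odc1, at percentiles 95.2 and 95.3. The median over all genes was -0.0015 and -0.0014. Sat1 was at 62.4 CPM (58.3 to 66.7) in G1 and 35.8 CPM (34.4 to 37.3) in S in vehicle, against 57.2 and 35.0 CPM in DFO. Its difference of S over G1 was -0.78 and -0.69, at percentiles 1.59 and 2.29, so that it stood at the opposite end of the table from Srm and Odc1 in both libraries. Eif5a was at 1359 CPM in G1 and 1694 CPM in S in vehicle, with a difference of 0.32, and 0.27 in DFO. Dohh varied little, with 0.095 and 0.15, and Oaz1 less, with 0.019 and -0.015.

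Within a phase, DFO over vehicle was 0.25 (0.17 to 0.34) in G1, 0.21 (0.19 to 0.24) in S and 0.19 (0.17 to 0.21) in G2/M for Odc1, so the Odc1 difference was present in each. For Sat1 it was -0.12 (-0.28 to 0.027), -0.032 (-0.11 to 0.046) and -0.16 (-0.21 to -0.11), with an interval below 0 in G2/M alone. For Eif5a it was -0.050, -0.097 and -0.100, each with an interval below 0. For Dohh it was -0.0080 (-0.14 to 0.12), 0.045 (-0.0056 to 0.095) and 0.075 (0.045 to 0.11), with an interval above 0 in G2/M alone. Whether these differences change between phases was not tested.

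**Figure D5:**
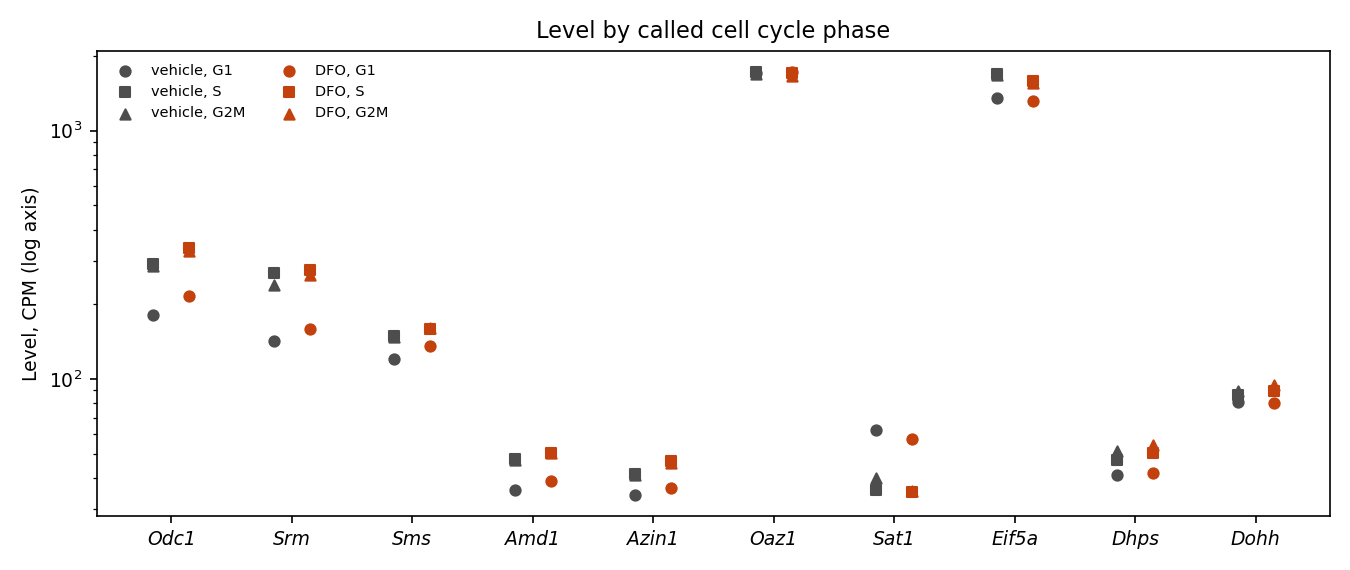
Level in CPM (log axis) of each gene in cells called G1 (circles), S (squares) and G2/M (triangles), in the vehicle and DFO libraries; some S and G2/M symbols cover each other. The circles lie lowest for Odc1 and Srm and highest for Sat1, at 62.4 and 57.2 CPM.

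Sat1 and Sms lie on the X chromosome, so levels were also taken by sex of cell. In vehicle 4751 cells were called female and 2767 male, and in DFO 5251 and 3266. Sat1 was at 39.9 CPM in female and 40.1 CPM in male cells in vehicle, against 36.4 and 35.8 CPM in DFO. Sms was at 147 and 145 CPM under vehicle and at 159 and 159 CPM in DFO. For both genes the counting interval of female over male held 0 in both libraries, and the median over 267 X-linked genes was -0.0053 in vehicle and -0.011 in DFO. All 10 genes kept the sign of their DFO difference in each sex, and for Odc1 it was 0.21 in both. The sexes are parts of the same 2 libraries, and the share of all genes that kept their sign is not given.

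Per cell at equal depth, detection ran from a minority of cells for Sat1, Azin1, Amd1 and Dhps to nearly every cell for Oaz1 and Eif5a, with the other genes between. In cells thinned to 10000 molecules (8357 vehicle and 9419 DFO cells, with 351 and 433 shallower cells left out), Odc1 was detected in 87.8% (87.1% to 88.5%) of vehicle and 92.0% (91.4% to 92.5%) of DFO cells, and unthinned in 96.5% and 98.0%. Its mean was 2.66 and 3.10 molecules per thinned cell. Srm was detected in 82.4% and 84.9% of thinned cells and Sms in 75.5% and 77.8%. Amd1 was detected in 36.6% and 38.5%, Azin1 in 32.7% and 36.0%, and Dhps in 36.9% and 40.5%. The Dhps gap between libraries was 3.62 percentage points there, 2.1 unthinned and 1.18 at 5000 molecules. For Azin1 it was 3.26, 2.99 and 1.7. Oaz1 was found in 100% of the thinned cells of both libraries, at a mean of 17.0 and 16.8 molecules, and Eif5a in over 99.9%, at 16.0 and 15.3 molecules. Sat1 was detected in 33.9% (32.9% to 35.0%) and 31.5% (30.6% to 32.5%), and unthinned in 65.1% and 60.9%. Dohh was detected in 57.7% (56.6% to 58.8%) and 60.1% (59.1% to 61.1%), and unthinned in 86.5% and 87.2%. The clusters held no cell type that should lack these genes, so the share that free RNA gives was not measured.

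At least 1 molecule of each of the hypusine enzymes Dhps and Dohh was seen in 21.9% (21.04% to 22.8%) of thinned vehicle cells and 24.8% (23.9% to 25.7%) of DFO cells, and neither in 27.3% and 24.2%. Spread between cells differed among the genes. The variance of thinned counts over their mean, which is 1 for counting alone, was 1.70 in vehicle and 1.502 in DFO for Eif5a, 1.60 and 1.48 for Srm and 1.503 and 1.44 for Odc1. These lay above percentile 96 of all genes in both libraries, while the median gene was at 1.03 in both. Their means in vehicle, 2.29 to 16.0 molecules per thinned cell, were above the 0.287 of the median gene. Genes of similar level were not compared. Oaz1, with a mean near that of Eif5a, was at 1.23 and 1.20, at percentiles 91.7 and 91.9. Dohh, at 1.005 and 1.008, was at percentiles 16.0 and 20.3. Across cells Odc1, Srm and Eif5a were correlated with each other, with Pearson r from 0.2501 to 0.255 in vehicle (8357 cells) and from 0.209 to 0.228 in DFO (9419 cells). Srm and Eif5a had the highest value in vehicle, 0.255. The other pairs were at 0.114 or below in vehicle. Counting error lowers r for genes with few molecules, and Amd1, Azin1, Sat1 and Dhps had means of 0.407 to 0.473 there. The part of level in this contrast was not tested. Cells of a library share its depth and clusters, and such weak values describe these sums only.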

How the data were processed

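Each of the 2 tables, as deposited by the authors, holds natural log values per gene and cell. The submitters' processing notes name FastQC 0.11.9, Trim Galore 0.6.5, Cell Ranger 3.0.2 and the build mm10; the cell filter and gene annotation are not stated in the labels or headers. Back-transformed values were whole multiples of 1 molecule per cell for 100% of nonzero entries (tolerance 0.05), and these molecules were summed per library, cluster, phase or sex, scaled to CPM and compared with a pseudocount of 1. A minimum mean of 5 CPM applied. Intervals are exact Poisson, exact binomial or Clopper-Pearson (95%). The sum and difference steps were tested on simulated counts. Cells were clustered with scanpy 1.11.5 and leidenalg 0.10.2 (2000 variable genes, 30 components, 15 neighbours, resolution 0.5). Female cells had at least 5 Xist molecules and no Y-linked molecule, male cells at most 1 and at least 2; 2.42% of vehicle and 3.40% of DFO cells carried both kinds. No doublet caller was run. Positions are from GENCODE M21. The members and lists were chosen with earlier results of these data known. Named genes are the members, the 2 highest and 2 lowest of each list, and the 3 most alike for 4 members in each clustering. Also named are copies and overlapping genes, Myc, Tfrc, Pf4 and Mtap. Alternatives covered scaling, pseudocount, minimum, cell filter, thinning, cluster resolution and equal shares of clusters, phases and sexes.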

Additional observations from a re-analysis of the deposited data

Results flagged for a closer look

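The Oaz1 difference between DFO and vehicle had opposite signs in 2 cell clusters made without X and Y genes. It was 0.045 (counting interval 0.022 to 0.068) in cluster 5, where Il1rl1 and Gzmb are among the leading genes, and -0.058 (-0.070 to -0.046) in the megakaryocyte-like cluster 2. In both the counting interval lay on one side of 0. These clusters had the highest and the lowest Oaz1 difference of the 7. The median over all genes was 0.021 in cluster 5 and 0.030 in cluster 2, with an SD of 0.15 and 0.14. The share of all genes with opposite signs in these clusters is not given. With 1 library per condition the contrast between the clusters was not tested, and the summed megakaryocyte markers went from 1476 to 935 CPM in cluster 5 and from 5053 to 2892 CPM in cluster 2.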

How the results depend on the processing

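Every one of the 10 genes kept the sign of its difference under all 13 alternatives to the scaling, filters and cell makeup. Among these, the other minimums and pseudocounts could not turn the sign of a gene. The share of all genes that kept their sign is not given. The ranges were 0.19 to 0.24 for Odc1, -0.18 to -0.12 for Sat1, -0.11 to -0.069 for Eif5a and 0.048 to 0.076 for Dohh. The number of genes higher by 0.1 or more went from 4 to 2 with median-of-ratios scaling and to 0 at a size of 0.25, and the number lower from 1 to 2 and 0. The number higher was 6 with the mean over cells and 5 with thinning and with equal shares of clusters of either kind. Higher in every cluster were 3 in place of 6 at resolution 1, where the share of all genes went from 19.6% to 6.5% over 16 clusters. Lower in every cluster were 1 in place of 2 at resolution 0.25, 0 at resolution 1 and 0 without X and Y genes, an alternative added after seeing the data, beside 10.8% of all genes in the first clusters and 14.2%, 3.07% and 9.43% in these. For the other polyamine genes the median of 0.084 became 0.10 with the mean over cells, 0.064 with thinning, 0.054 with equal cluster shares and 0.058 with equal shares of clusters without X and Y genes. Their number past the fold rule, 5, became 2 with a pseudocount of 10 or a minimum of 20 CPM, 3 with equal cluster shares (of either clustering) or equal phase shares, and 1 at 0.25. For the methionine genes the median of 0.089 became 0.058 with a pseudocount of 10 and 0.12 with a minimum of 20 CPM, and their number past the rule, 5, became 1 at 0.25. The cause of these shifts was not tested. No paired analysis was possible because each condition has 1 library. Depth limits the results per cluster most in cluster 6, with 426 and 480 cells.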
